A study of Mus musculus with 2 samples.

Results

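The complement components and regulators were read in uterine stromal cells of Hand2-null and floxed control mice. The list holds 36 genes, chosen by name with earlier results of these data known. Of these, 31 had a probe set with exactly 1 gene symbol in the platform annotation, among 18193 genes with such a probe set, and 5 did not. The 31 genes had 54 probe sets. C1rl, C3, C4b, C7 and Cfd were therefore not analysed here. The control group was Hand2 Floxed, with an intact Hand2 gene flanked by loxP sites, and the other group was Hand2-null, made by crossing these mice to PRcre. In PRcre mice the progesterone receptor gene drives Cre recombinase, so the deletion takes place in cells that express this receptor and is not limited to the stroma. Both groups came from day 4 of pregnancy and both labels name a mixed Prcre, C57BL/6 and SV129 background, so whether the control mice carried Cre is not settled by the labels. Epithelial clumps were discarded after enzyme treatment, and stromal cells were released with collagenase and left to attach to plates. RNA was pooled by genotype and hybridized to 1 array each. The series design gives 5 mice per genotype and the extraction protocol 4. No replicate exists, so no test was made and every difference below is between these 2 pools.

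Complement is a cascade of plasma and tissue proteins that tags and lyses targets and recruits leukocytes. The classical arm begins when C1q binds antibody or cell debris and activates the proteases C1r and C1s, which cleave C4 and C2. The lectin arm reaches the same step through mannose-binding lectins, ficolins and their MASP proteases, and the alternative arm amplifies C3 cleavage through factor B, factor D and properdin. All arms meet at C3 and end in the pore built from C5b to C9. Soluble and membrane-bound inhibitors hold the cascade in check on the body's own cells. In the mouse uterus the epithelium makes C3 under estrogen, tissue macrophages make C1q, and fibroblasts make C1r, C1s and the C1 inhibitor.

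The values are MAS5 signals, an intensity on a linear scale, with equal trimmed means in both arrays. A floor was set at the 60th percentile of each array, 64.2 for the control and 67.5 for the Hand2-null one, and a gene was measured when a probe set reached the floor in at least 1 array. Of the named genes 10376 were measured. By its bright probe set Hand2 itself read 1545 in the control pool against 38.5, under the floor, in Hand2-null cells, at least 22.9-fold lower. Whether this probe set lies in the deleted part is not stated by the labels. Of 12 stromal markers, 12 were measured in the isolates, with Col3a1 at 11668 and 12693, control array first. The isolates also held macrophage, endothelial, epithelial, mesothelial and smooth muscle transcripts. In such a mixture, fewer cells of a type and less RNA per cell cannot be told apart.

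Of the 31 complement genes with a probe set, 16 were at or above the floor in both arrays, 0 in only 1 array and 15 in neither. Among the 16, C2 and Cfb were higher by 2-fold or more with Hand2 ablated, against 1.99% of all measured genes, and 0 were lower by 2-fold or more, against 0.742% of all measured genes. At 1.5-fold the counts were also 2 higher, again C2 and Cfb, and 0 lower, against 6.21% and 3.32% of all measured genes. Because earlier results were known when the list was chosen, these counts do not test the group. A ratio above 0 was seen for 9 of the 16, against 44.7% of all measured genes. The median log2 ratio of the 16, Hand2-null over control, was 0.07, beside -0.03 over all measured genes. Both genes encode the catalytic subunit of a C3 convertase, and by their brightest probe sets the other 14 genes differed by less than 1.5-fold. In place of a replicate error, the log2 ratios of different probe sets of a gene had a pooled SD of 0.22 over 4065 genes, and of 0.11 over the 9 complement genes with several measured probe sets. This spread leaves out variation between mice.

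**Figure D1:**
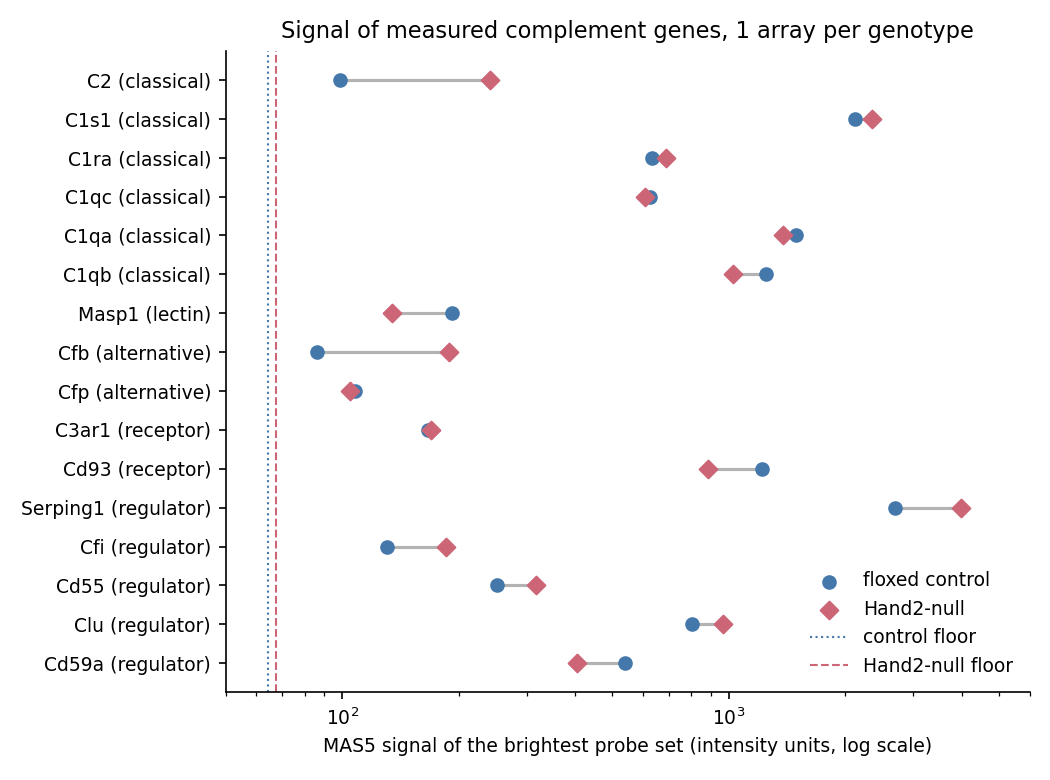
MAS5 signal (intensity units, log scale) of the brightest probe set of each of the 16 measured complement genes, in the floxed control pool (circles) and the Hand2-null pool (diamonds), with the floor of each array as a vertical line and genes grouped by arm. C2 and Cfb show the longest connecting lines, from 98.8 to 241 and from 86.0 to 189, and start near the floor.

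C2, the protease of the classical and lectin C3 convertase, had the highest ratio of the list. Its 3 probe sets read 98.8, 90.1 and 101 in the control pool and 241, 204 and 207 in the Hand2-null pool. All 3 were higher in the Hand2-null pool, by 2.44-fold, 2.27-fold and 2.05-fold. Their log2 ratios averaged 1.17 ± 0.13 (SD over 3 probe sets on the same 2 arrays, which are not replicates). Of all 10376 measured genes, 105, or 1.01%, had a ratio as high as that of the brightest C2 probe set. C2 lay in the second of 4 brightness classes, in which 1.97% of 2594 genes were at least 2-fold higher.

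Cfb, factor B, is the counterpart of C2 in the alternative arm and the catalytic part of the alternative C3 convertase. Its single probe set had a signal of 86.0 in control cells and 189 in Hand2-null cells, 2.20-fold higher. A ratio at least as high was seen for 147 measured genes, or 1.42%. Cfb fell in the dimmest class, in which 2.43% of genes were at least 2-fold higher. Control signals of both genes were within 1.57 times the floor, at 1.34 times for Cfb and 1.40 to 1.57 times for C2. With the floor raised to the 75th percentile both control values lay under it, and the log2 ratios became at least 0.56 for C2 and at least 0.22 for Cfb, under the 2-fold line. With a pseudo-signal equal to the floor added to both arrays, they were 0.92 and 0.77.

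**Figure D2:**
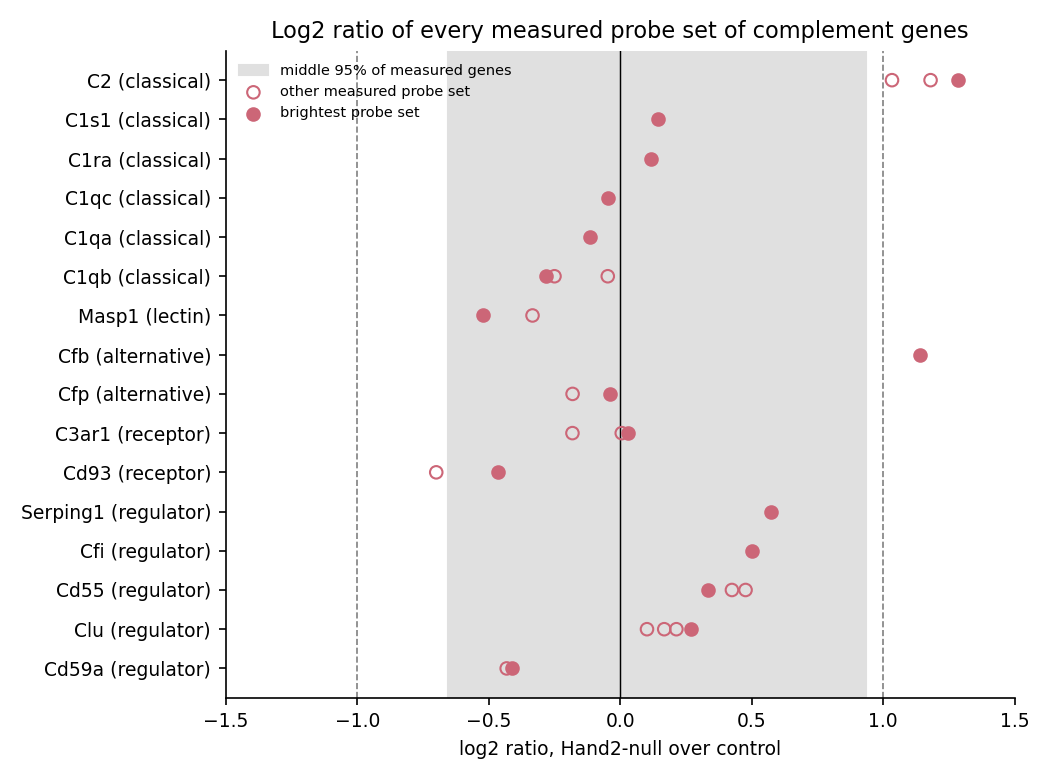
Log2 ratio (Hand2-null over control) of every measured probe set of the 16 complement genes, filled for the brightest and open for the others. The grey band holds the middle 95% of all measured genes, from -0.66 to 0.93, and the dashed lines mark 2-fold. All 3 probe sets of C2 and the probe set of Cfb lie to the right of the band, and 1 of the probe sets of Cd93 lies just to its left, at -0.70.

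C2 and Cfb are neighbours on chromosome 17 in the RefSeq annotation (GRCm38.p6), in a region of the major histocompatibility complex that also holds C4b. The genes around them were read too, a choice made after the values of both had been seen. Of the 8 protein-coding genes on each side of C2, 12 that are not complement genes were measured, and 0 of these were at least 2-fold higher or lower. Of all measured genes only 1.99% were higher and 0.742% lower by that much, so 0 of 12 is near the common share. The log2 ratios of these 12 ran from -0.42 to 0.70, with a median of 0.05, and 3 of them were under the floor in 1 array. Next to Cfb lies Nelfe, a subunit of a transcription elongation factor, at 322 in control cells and 287 in Hand2-null cells. On the other side of C2 lies Zbtb12, a zinc finger gene, at 70.0 and 64.8. Tnxb, the matrix protein tenascin X, had the highest ratio among these neighbours, at 1090.3 and 1772.

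**Figure D3:**
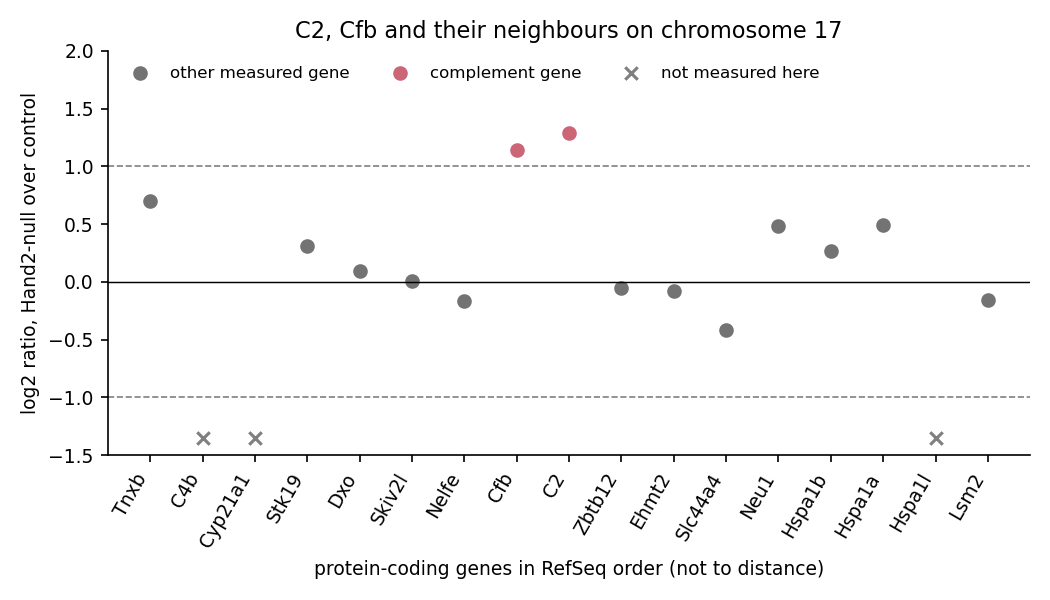
Log2 ratio (Hand2-null over control) of C2, Cfb and the protein-coding genes around them on chromosome 17, in RefSeq gene order and not to distance, with dashed lines at 2-fold. C2 and Cfb lie above the upper line at 1.29 and 1.14, and the other 12 measured genes lie between -0.42 and 0.70. Crosses mark genes with no value here.

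The 3 chains of C1q, the recognition molecule of the classical arm, had close signals in both arrays. C1qa read 1489.7 in control cells and 1377 in Hand2-null cells, a log2 ratio of -0.11. C1qc read 627 and 607, a log2 ratio of -0.05. The 3 probe sets of C1qb read 1250.5, 637 and 1031 in the control pool and 1027, 535 and 998 in the Hand2-null pool, with log2 ratios of -0.28, -0.25 and -0.05. All 5 C1q probe sets were thus slightly lower in the Hand2-null pool, by at most 1.22-fold. The median over all measured genes was -0.03, and 44.7% of them had a ratio above 0, so no shared decrease is read. The ratios of C1qa and C1qc and the -0.05 of C1qb were smaller in size than the 0.22 spread between probe sets of a gene. The 3 C1q genes lie side by side on chromosome 4, and 6 measured neighbours that are not complement genes had log2 ratios of -0.32 to 0.55. Macrophage markers, read beside C1q as its usual source, were measured for 13 of 14 genes, 6 higher and 7 lower, and their median log2 ratio was -0.05. Their summed signal was 12108 in control cells and 11680.2 in Hand2-null cells. Lyz2, the macrophage lysozyme, read 3371 and 2984, Csf1r, the receptor of the macrophage growth factor, 2277 and 2547, and Ctss, a lysosomal protease, 1612 and 1326. Cd163 was under the floor in both arrays.

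The proteases of the C1 complex differed little as well. C1s1, the C1s protease, read 2122 in control cells and 2347 in Hand2-null cells, a log2 ratio of 0.15. C1ra, the C1r protease that activates it, read 634 and 687, a log2 ratio of 0.12. Both ratios are smaller than the 0.22 spread between probe sets of a gene. The only C1s1 probe set is of the _s_at type, which can bind more than 1 transcript, and C1ra has a near copy in C1rb, so each signal may hold some of a related transcript.

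In the lectin arm 1 of 6 genes was measured. Masp1, which makes several lectin-arm proteins by alternative splicing, read 192 in control cells and 134 in Hand2-null cells by its brightest probe set, a log2 ratio of -0.52. Its second measured probe set read 90.3 and 71.7, a log2 ratio of -0.33, and 3 others were under the floor in both arrays. Of all measured genes 480, or 4.63%, had a ratio as low as the brighter one. With the floor at the 75th percentile the log2 ratio was -0.22 or lower, because the Hand2-null signal then lay under it. Both measured sets are of the _s_at type. The recognition genes of this arm were all under the floor, so no fold is given. The mannose-binding lectins Mbl1 and Mbl2 read 5.98 and 10.7 in the control pool and 0.57 and 7.55 in the Hand2-null pool. The ficolins Fcna and Fcnb read 29.7 and 16.6 in the control pool and 37.4 and 18.0 in the Hand2-null pool. Masp2, the protease that cleaves C4 and C2 for this arm, read 16.3 and 16.9 in control cells and 8.40 and 4.36 in Hand2-null cells by its 2 probe sets.

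In the alternative arm Cfp was measured beside Cfb. Cfp, properdin, stabilizes the convertase that factor B forms. Its 2 probe sets read 108 and 103 in the control pool and 105 and 90.6 in the Hand2-null pool, with log2 ratios of -0.04 and -0.18. With the pseudo-signal added, the first was 0.0023, so its sign is not settled. Both ratios were smaller than the 0.22 spread between probe sets of a gene. The difference between the ratios of Cfb and Cfp was not tested.

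None of the 5 terminal genes with a probe set reached the floor in either array. C9, the subunit that polymerizes into the pore, was the brightest of them, at 33.6 in control cells and 22.3 in Hand2-null cells. C6 read 13.2 and 10.8, and C8g, the lipocalin-like chain of C8, read 11.3 and 10.6. C8a and C8b, the larger chains of C8, read 0.34 and 1.21 in the control pool and 3.98 and 3.44 in the Hand2-null pool. These signals allow no fold. Over the 15 genes under the floor, with 17 probe sets, control signals ran from 0.34 to 33.6 and Hand2-null signals from 0.57 to 37.4.

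Among the receptors, Cd93 and C3ar1 were measured. Cd93, a membrane lectin of endothelial and myeloid cells first described as a C1q receptor, read 1221 and 1245 in the control pool and 886 and 767 in the Hand2-null pool by its 2 bright probe sets. Both were lower in the Hand2-null pool, with log2 ratios of -0.46 and -0.70, and its other 3 probe sets were under the floor. Of all measured genes 669, or 6.45%, had a ratio as low as -0.46. Endothelial markers were lower beside it, as 10 of 10 were measured, 9 of them lower, and their median log2 ratio was -0.24. Over all measured genes 44.7% had a ratio above 0. Their summed signal was 4023 in control cells and 3098 in Hand2-null cells. Cdh5, the endothelial cadherin, read 735 and 341, Emcn, a surface sialomucin, 634 and 472, and Esam, an adhesion molecule of endothelial junctions, 852 and 639. Their part in the Cd93 difference was not tested.

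C3ar1, the receptor of the C3a fragment on myeloid cells, showed no common direction. Its 3 probe sets read 167, 111 and 79.9 in the control pool and 170.1, 98.0 and 80.2 in the Hand2-null pool, with log2 ratios of 0.03, -0.18 and 0.01. It was the only 1 of the 9 genes with several measured probe sets whose probe sets differed in sign. C5ar1, the C5a receptor, was under the floor, at 17.9 and 27.5 in control cells and 10.5 and 31.3 in Hand2-null cells. Cr2, the C3d receptor of B cells, read 2.41 and 5.36, and Vsig4, a C3b receptor of tissue macrophages, read 6.99 and 13.2. The 5 B cell markers with a probe set were under the floor in both arrays too.

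Of the 7 regulators 5 were measured, 4 higher and 1 lower in the Hand2-null pool, each by less than 2-fold, and their median log2 ratio was 0.34. Over all measured genes 44.7% had a ratio above 0, and with 5 genes no direction is read for the group. Serping1, the C1 inhibitor that shuts off C1r, C1s and the MASPs, read 2687 in control cells and 3994 in Hand2-null cells, 1.49-fold higher. A ratio at least as high was seen for 669 measured genes, or 6.45%. Cfi, factor I, the protease that inactivates C3b and C4b, read 131 and 185, a log2 ratio of 0.50, or at least 0.19 with the floor at the 75th percentile. Serping1 and Cfi each rest on 1 probe set.

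The membrane regulators Cd55 and Cd59a had ratios of opposite sign. Cd55, decay-accelerating factor, which takes C3 convertases apart, read 252, 156 and 169 in the control pool and 317, 209 and 236 in the Hand2-null pool by its 3 probe sets. All 3 were higher there, with log2 ratios of 0.34, 0.42 and 0.48. Cd59a, which blocks the pore at the step of C9, read 539 and 288 in the control pool and 405 and 214 in the Hand2-null pool. Both Cd59a probe sets were lower, with log2 ratios of -0.41 and -0.43. The ratios of both genes were larger in size than the 0.22 spread between probe sets and lay inside the middle 95% of all measured genes. Cd55b and Cd59b are near copies. Cd55b was under the floor by its brightest probe set, at 4.67 in control cells and 0.33 in Hand2-null cells. Cd59b had no probe set with exactly 1 gene symbol. The share of the Cd55 and Cd59a signals that these copies could give was not tested.

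Clu, clusterin, a secreted chaperone that also binds the terminal complex, read 802, 790, 755 and 370 in the control pool and 966, 916, 811 and 416 in the Hand2-null pool by its 4 probe sets. All 4 were higher in the Hand2-null pool, with log2 ratios of 0.27, 0.21, 0.10 and 0.17, of which 3 are smaller than the 0.22 spread between probe sets of a gene. Cd46, a cofactor for factor I that mice express mainly in the testis, was under the floor at 20.2 and 15.9. C4bp, the C4b-binding protein of plasma, was under it as well, at 10.4 and 15.3.

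A list of 33 other genes of complement recognition, binding and control was read the same way. Of 25 with a probe set 10 were measured, 3 higher and 7 lower, 0 by at least 2-fold in either direction, and their median log2 ratio was -0.19. Among all measured genes 44.7% had a ratio above 0, and 1.99% were higher and 0.742% lower by 2-fold or more. Crp, a pentraxin that binds C1q, had the ratio of largest size, with 97.3 in the control and 61.5, under the floor, in Hand2-null cells, a log2 ratio of -0.53 or lower. Itgax, a chain of complement receptor 4, was at 0.38, with signals of 83.0 and 108. C1qbp, a mitochondrial protein that also binds C1q, was at -0.26, Calr, the chaperone calreticulin, at -0.22, the collectin Colec12 at -0.22 and the pentraxin Ptx3 at -0.21. Cr1l, the mouse membrane regulator known as Crry, read 555 and 563. Cr1l lies outside the rule for named genes and was named after its value was seen, because it acts beside Cd55. Hc, which encodes C5, and Itgam, a chain of complement receptor 3, were under the floor.

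Markers of other cell types differed between the arrays beside C2, Cfb and the regulators. All 10 smooth muscle markers were measured. By their brightest probe sets 10 were higher in the Hand2-null pool, 8 by at least 2-fold, against 1.99% of all measured genes. Another probe set of Synpo2 was lower, with a log2 ratio of -0.47. Summed signals of this list were 20075 in control cells and 44764 in Hand2-null cells. Acta2, smooth muscle actin, read 6764 and 10979. Of 7 mesothelial markers 6 were measured and 5 were higher, with Muc16 under the floor, while 44.7% of all measured genes had a ratio above 0. By their brightest probe sets 2 were at least 2-fold higher, Gpm6a at a log2 ratio of 1.77 and Upk3b at 1.42. Their other measured probe sets lay under the 2-fold line, at 0.56 and 0.94. Msln, Upk1b and Lrrn4 were under the floor in the control array, so their ratios are lower bounds. Summed signals of the measured ones were 952 and 1434. Of these sums Wt1, the brightest and the only lower one, gave 633 and 541. All 14 epithelial markers were measured, 10 higher and 4 lower, with summed signals of 10222 and 10984, and Krt8, a keratin, read 1704 and 1753. Of 7 adipocyte markers with a probe set only Fabp4 was measured, at 85.5 and 92.9, and Adipoq was under the floor. The part of these cell types in the differences of C2, Cfb, Serping1, Cfi, Cd55 and Clu was not tested.

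**Figure D4:**
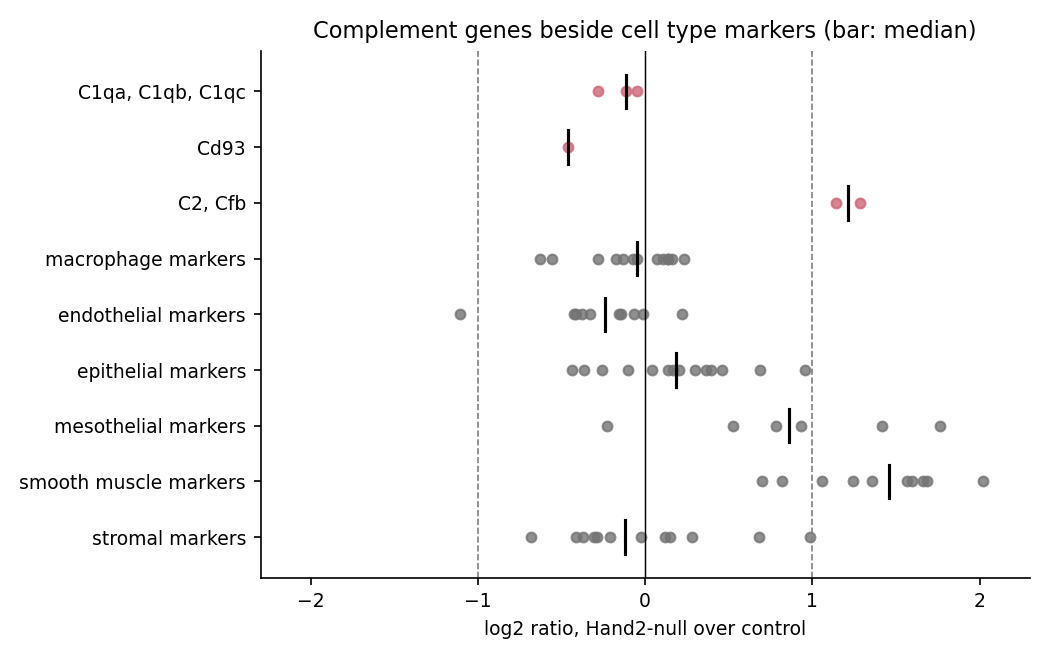
Log2 ratios (Hand2-null over control) of the C1q chains, Cd93 and the pair C2 and Cfb, above those of all measured genes of 6 marker lists, with a bar at each median and dashed lines at 2-fold. The C1q chains lie among the macrophage markers, whose median is -0.05, and Cd93 among the endothelial markers, whose median is -0.24. Neither place is particular to that list. The C1q chains and Cd93 also lie inside the range of the stromal markers, -0.68 to 0.98, and Cd93 inside that of the macrophage markers, -0.63 to 0.23. The smooth muscle markers lie furthest to the right, with a median of 1.46.

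Read against all measured genes, the complement genes were spread from the low to the high end of the distribution. Of the 16, 14 lay inside the middle 95% of ratios, and the other 2 were C2 and Cfb. Masp1, Cd93 and Cd59a formed the low end, each with at most 8.23% of all measured genes at or below it. C2, Cfb, Serping1 and Cfi formed the high end, each with at most 8.01% at or above it.

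**Figure D5:**
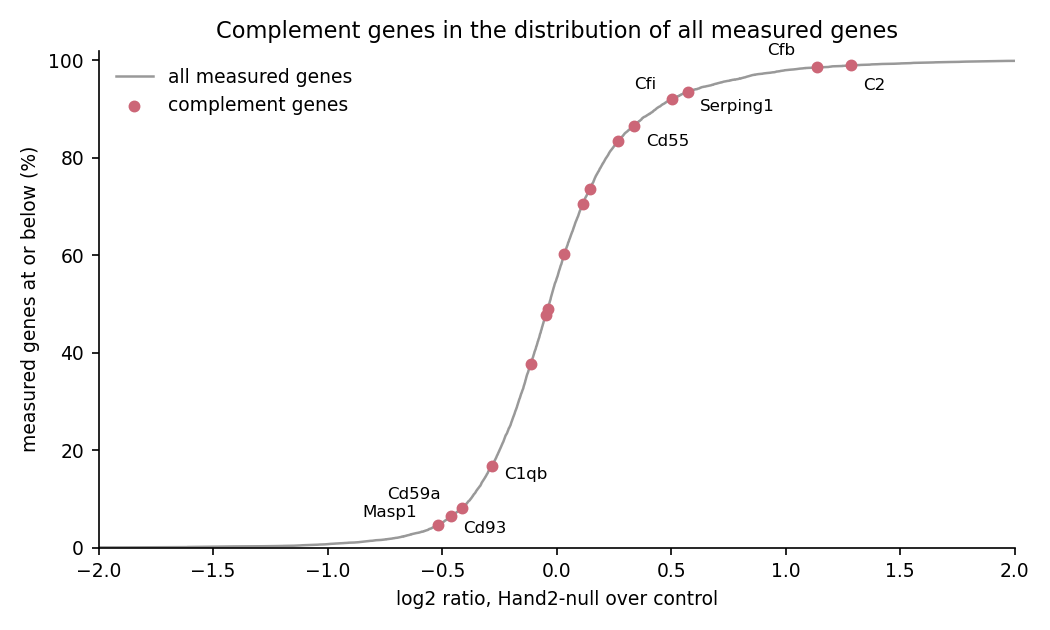
Share of all 10376 measured genes (%) at or below each log2 ratio (Hand2-null over control), with the 16 complement genes as points on the curve. Masp1, Cd93 and Cd59a lie at 4.63%, 6.45% and 8.23%, and Cfb and C2 at 98.6% and 99.0%.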

How the data were processed

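Total RNA of stromal isolates was pooled by genotype and 100 ng was labelled for each of 2 arrays, per the labels' protocols. The deposited values are intensity on a linear scale, and the submitters' processing notes name MAS5 and version 1 of Affymetrix Expression Console as the authors' tools. With 2% trimmed from either end, both arrays had a mean of 150.001. Normalization between arrays beyond this scaling and a genome build are not given in the sources used here, and detection calls were not used here. Ratios of dim probe sets are unsteady, because MAS5 subtracts mismatch signals. Precision is limited by having 2 arrays.

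The 64 controls among the 45101 probe sets were left out. Of the rest, 34945 had 1 symbol, 932 several and 9160 none listed. Complement genes were taken from probe sets with 1 symbol, and sets that C1ra, C4b or Cd55 share with another gene were not used. All 31 genes with a probe set matched a RefSeq gene of GRCm38.p6 by Entrez ID with the same symbol. Signals under the floor were set to it, log2 ratios were taken, and each gene was represented by its brightest probe set (highest mean log2 signal). A gene was counted as different at 2-fold. Every complement gene was named. Of the other complement genes up to 6 with the largest ratio and of each marker list up to 3 with the largest signal were named. Some genes beyond these rules were named after their values were seen. The members and lists were chosen with earlier results of these data known. Alternatives were centring, quantile and loess scaling, 3 floor settings, a pseudo-signal, 2 probe set rules and a 1.5-fold threshold. The code was checked on simulated data with the same noise at every brightness, so this check does not measure the error of dim ratios. The software was pandas 2.3.3 and numpy 2.4.6 under Python 3.11.15, with statsmodels 0.14.6 for loess, scipy 1.17.1 for the trimmed means and matplotlib 3.10.9 for plots.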

Additional observations from a re-analysis of the deposited data

How the results depend on the processing

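The 2 genes at least 2-fold higher, C2 and Cfb, passed that line under centring, quantile and loess scaling, with the floor at the 50th percentile, with the mean over probe sets and without _s_at, _x_at and _a_at probe sets. Their number was 0 with the floor at the 75th percentile, where both control signals lay under the floor, and 0 with a pseudo-signal, which pulls ratios of dim genes toward 0. With no floor 5 genes were at least 2-fold higher, 1 was at least 2-fold lower and 17 of 31 had a ratio above 0, but this adds 15 genes under the floor, and 9.05% of all genes then passed the line upward. At 1.5-fold the counts stayed 2 higher and 0 lower. The median log2 ratio of complement genes ranged from 0.03 to 0.12. Of 140 ratios of single genes under an alternative, 134 moved by less than the spread between probe sets and 6 by more, those of C2, Cfb, Cfi and Masp1 with the higher floor and of C2 and Cfb with a pseudo-signal. The sign held for 14 of 16 genes in every alternative that gave them a value, the exceptions being C3ar1 and Cfp, both near 0. C1s1, Clu and Masp1 have no value without _s_at, _x_at and _a_at probe sets, and Cfp has none with the floor at the 75th percentile. No paired analysis was possible because each genotype has 1 array.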

Other observations

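Genes that respond to inflammatory signals, which also act on several complement genes, were read as a list of acute phase and NF-kB or STAT3 response genes. Of 14 genes 10 were measured, 7 higher and 3 lower, 0 by at least 2-fold, with a median log2 ratio of 0.32. Among all measured genes 44.7% had a ratio above 0, and 1.99% were higher and 0.742% lower by 2-fold or more. With 10 genes, 0 past 2-fold is therefore not read as a result. Tnfaip3, an inhibitor of NF-kB signalling, read 398 in the control and 764 in the Hand2-null array, the cytokine Il6 read 207 and 353, and Icam1, an adhesion molecule, read 487 and 660.1. The brighter Nfkbia and Socs3 had smaller log2 ratios, 0.30 and 0.35 by their brightest probe sets. Cp was at 0.69 by its brightest probe set and at -0.05 by the lowest of its 6. Saa3 was under the floor in the control array, so its ratio of 0.25 is a lower bound. The plasma-type genes Hp, haptoglobin, and Lrg1 were lower, at 169 against 90.1 and at 333 against 186. Steap4 was lower as well, at 599 against 338, a log2 ratio of -0.82. Saa1, Saa2, Orm1 and Orm2, acute phase genes of the liver, were under the floor in both arrays. The genes of this response list were named after their values were seen. The part of inflammatory signals in the differences of the complement genes was not tested.

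Of 7 neutrophil markers with a probe set 3 were measured, 1 higher and 2 lower, while 44.7% of all measured genes had a ratio above 0. The 3 had a summed signal of 394 in the control and 197 in the Hand2-null array. S100a8 read 192 and 105, S100a9 read 138 and 70.0, and Csf3r read 64.9, barely above the floor, and 21.5, under it. C5ar1, which neutrophils carry in abundance, was under the floor in both arrays.

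Estrogen-induced genes of the uterus were read beside these, from a list of 10 chosen with earlier results of these data known. All 10 were measured, 8 of them higher and 2 lower in the Hand2-null pool, 6 at least 2-fold higher, and their median log2 ratio was 1.16. Over all measured genes 1.99% were at least 2-fold higher and 44.7% had a ratio above 0. Clca1, 1 of the 6, was under the floor in the control array at 39.2, so its ratio is a lower bound. Inhbb, the activin beta-B subunit, was at 2.61 by its brightest probe set and 0.39 by another, and Lcn2, a secreted lipocalin, was at 2.22. Igf1, a growth factor, was lower, at 6144 against 3888, and so was Pgr by its brightest probe set, at 2076 against 1791. Inhbb and Lcn2 had the highest ratios of the list, and the genes of this list were named after their values were seen. The part of estrogen response in the signals of C2, Cfb and the other complement genes was not tested, and C3 was not analysed here.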
